A study of Mus musculus with 19 samples.

Results

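The mouse *Zfp* genes and their relatives *Zfpm*, *Zkscan* and *Zscan* were followed through the circular DNA of the spinal cord. Members were taken by symbol, as all rows of the deposited table whose name starts with *Zfp* and a digit, *Zfpm*, *Zkscan* or *Zscan*. There were 90 of them among 8336 rows, or 1.08%. GENCODE release M21 on mm10 placed 89 by name and did not place *Zfp267*. Of the 89, 85 were annotated as protein-coding, 1 as antisense (*Zfp652os*), 1 as a processed pseudogene (*Zfp640*) and 2 as unitary pseudogenes (*Zfp133-ps* and *Zfp862-ps*).

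Extrachromosomal circular DNA (eccDNA) consists of closed double-stranded circles that derive from chromosomes and lie outside of them. The samples were cervical spinal cords of 9 ALS mice, males of the line B6.Cg-Tg(SOD1*G93A)1Gur/J that constitutively overexpress a mutant human *SOD1* gene, and of 10 C57BL/6J controls matched for sex and age. All ALS animals had motor symptoms with a severity score of 1 or 2 at 18 to 21 weeks, and animals that were late to develop them had been left out. Each animal gave 1 library, so that replicates are separate animals. From each, 400 ng of DNA were kept with exonuclease V for 7 days, which removes linear DNA, and the circles were then copied by rolling circle amplification (RCA) for 48 h. What was measured is DNA and not RNA, so that neither the tissue nor its cell types could be checked against marker genes.

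Most *Zfp* genes encode C2H2 zinc finger proteins. In a C2H2 finger, a pair of cysteines and a pair of histidines hold a zinc ion, and fingers in tandem read DNA bases. Many members also carry a KRAB domain, which recruits the corepressor Trim28 and heterochromatin proteins, and such genes lie in clusters of young duplicates that silence retroelements. Others stand alone and regulate neural development, bind RNA or act as cofactors of GATA factors.

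The unit is the produced-per-gene circle (PpGC). The authors summed the split reads, which cross the junction of a circle, over all eccDNAs on a gene and scaled the sum to the longest gene, in inverse proportion to gene length. Values were deposited as log2(PpGC + 1), so that levels are per gene length and were not scaled between samples. At this depth, a 0 stands for a gene without any eccDNA of at least 2 split reads. Undoing the length scaling gave a whole number of split reads, within 0.02, for 131 of the 134 values above 0 on placed members; the 3 exceptions were those of *Zfp536*. All genes together numbered 694 to 2204 per ALS library and 57 to 723 per control library, carrying 74016 to 392624 and 3583 to 123387 split reads. The number of sequenced reads per library is not in the table. RCA copies are not independent molecules, and split reads therefore have no counting interval here.

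*Zfp* genes with an eccDNA were more numerous in every ALS sample than in any control sample. ALS replicates 1 to 9 held 23, 9, 18, 5, 10, 8, 19, 14 and 13 of them (13.2 ± 5.87, SD over 9 mice). Control replicates 1 to 10 held 3, 3, 0, 0, 1, 2, 4, 1, 2 and 0 (1.6 ± 1.43, SD over 10 mice). The means differed by a ratio of 8.26, compared to 5.35 for all genes of the table. As a share of the genes with an eccDNA in the same library, *Zfp* genes made up 0.542 to 1.72% in ALS and 0 to 2.5% in controls, and these ranges overlapped. The mean share differed by 0.158 percentage points, with the higher mean in ALS, and by -0.399 points on chromosomes 2 to 9 and X alone. It was 0.0179 points for log2 PpGC values of at least 8. Without ALS replicate 7 or control replicate 3, 4, 8 or 10 it was 0.0614 to 0.0951 points, and without control replicate 5, 6 or 7 it was 0.256 to 0.339. Pooled over samples, the share was 1.02% in ALS and 0.657% in controls, from 119 and 16 pairs of gene and sample. No score over these genes was tested, because they were chosen with earlier results of the data known.

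**Figure D1:**
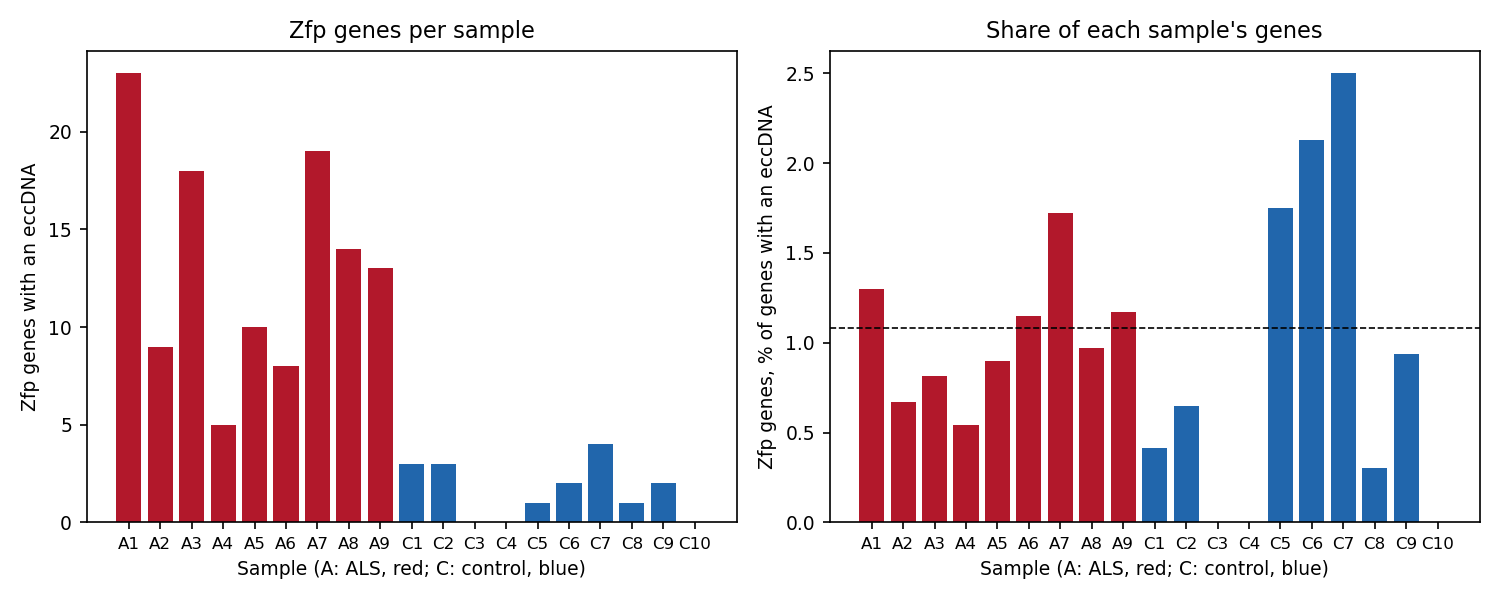
Number of *Zfp* genes with an eccDNA (left) and their percentage of all genes with an eccDNA (right) in each of the 9 ALS (A, red) and 10 control (C, blue) samples, 1 bar per animal, with the dashed line at 1.08%, the share of *Zfp* genes in the table. The ALS samples hold 5 to 23 *Zfp* genes and the controls 0 to 4, while the shares overlap between the groups.

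Single genes recurred little. Of the 90 genes, 64 (71.1%) had an eccDNA in 1 sample only, compared to 66.2% of all genes, and 92.1% of the members' values were 0 (all genes 91.1%). An eccDNA was found in ALS alone for 74 members (82.2%; 75% of all genes), in controls alone for 8 (8.89%; 10.9%) and in both groups for 8 (8.89%; 14%). Among all genes, 251 (3.01%) had an eccDNA in 2 or more controls, and no *Zfp* gene did. Any 2 ALS samples shared 0 to 4 *Zfp* genes (median 2, 36 pairs), and the 45 pairs of controls shared none. For 81 members the mean of the ALS group was the higher (90%; 86.5% of all genes) and for 9 it was the lower (10%; 13.5%). The median difference of mean log2 PpGC, ALS minus control, was 1.16 over the members and 1.19 over all genes.

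**Figure D2:**
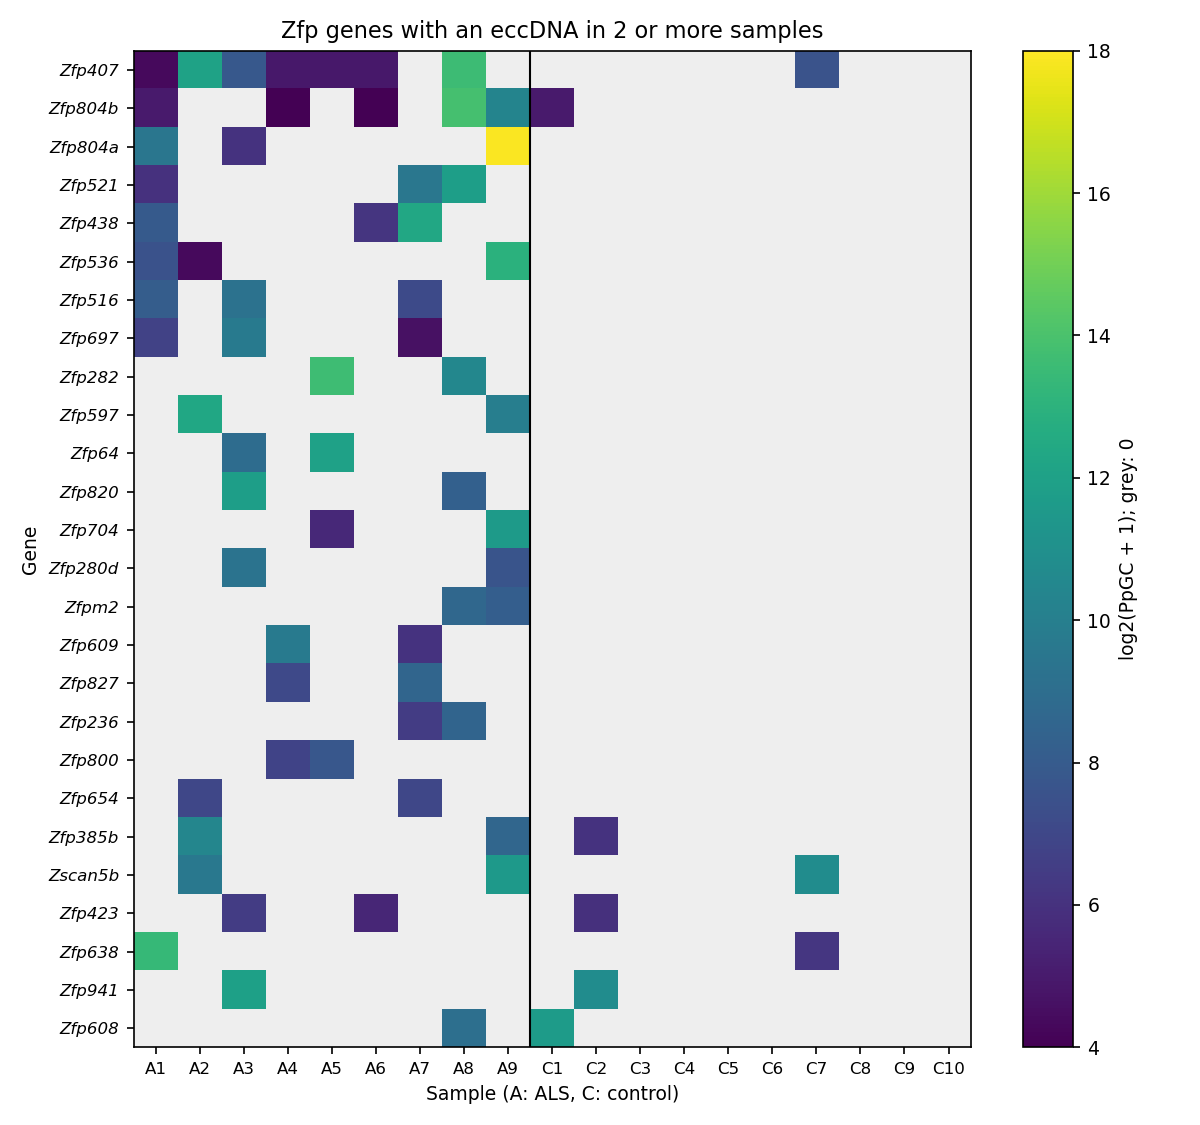
Log2(PpGC + 1) of the 26 *Zfp* genes with an eccDNA in 2 or more samples, 1 row per gene and 1 column per animal (A, ALS; C, control), with the level by colour and a value of 0 in grey. *Zfp407* fills 7 ALS columns and *Zfp804b* 5, and no row holds more than 1 control.

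In the deposited values, *Zfp407* was the only member that passed both thresholds applied here, which were a difference of more than 1 and p under 0.01 in Student's test (two-sided). That is 1 of 90 members (1.11%), next to 1.33% of all 8336 genes (111 genes) called higher in ALS. Lower in ALS were 0 members and 0 of all genes (0%), by Student's test also at an unadjusted p under 0.05. *Zfp407* encodes a protein with 22 finger motifs that is known as a regulator of glucose uptake in fat cells. The gene spans 462 kb on the minus strand (chr18:84128027-84589725, mm10). Its split reads in ALS replicates 1 to 9 were 2, 451, 24, 3, 3, 3, 0, 1267 and 0. Among controls, replicate 7 had 20 and the others had 0. An eccDNA was thus present in 7 of 9 ALS samples and 1 of 10 controls, while 4 of the 7 were called from 2 or 3 split reads. The mean log2 PpGC was 5.84 (SD 4.69) in ALS against 0.76 (SD 2.40) in controls. The difference of 5.08 ± 1.68 (SE) had a Student p of 0.00773 and a two-sided exact permutation p of 0.00548.

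Adjusted over all genes, the p-values of *Zfp407* were 0.382 (Student, Benjamini-Hochberg) and 0.581 (exact permutation). After this adjustment 6 genes (0.072%) passed 0.05 by Student's test and no *Zfp* gene did, whereas 2 members, *Zfp407* and *Zfp804b*, were higher at an unadjusted Student p under 0.05 (2.22%, compared to 4.2% of all genes). By exact permutation, the same 2 were higher at p under 0.05 (3.72% of all genes) and *Zfp407* at p under 0.01 (0.816%). With 19 samples the smallest exact p is 1.08e-05, and a lone gene at that p would have an adjusted value of 0.0902. The Student p of *Zfp407* stayed under 0.01 without ALS replicate 1, ALS replicate 7, ALS replicate 9 or control replicate 7 (0.00181 to 0.00924). It was 0.0102 to 0.0167 without any 1 of the other 15 samples, where the difference was 4.11 to 5.2. The exact permutation p was 0.0103 without ALS replicate 2, 3 or 8 and 0.00219 to 0.00967 without any 1 of the others. The load of each sample, its number of genes with eccDNA, was also used as a covariate that itself follows the group. The difference was then 2.43 (p = 0.455, permutation of the residuals of a fit on the load alone). It was 3.04 on the log2 scale of split reads without length scaling (exact permutation p = 0.0216) and 1.57 with a pseudocount of 100 (exact permutation p = 0.0516). *Zfp407* was not called there, nor with equal totals per sample (difference 4.24, exact permutation p = 0.0108). The replicate number as a block also ended the call (difference 4.99, p = 0.0442 in the fit with the block). The labels do not say whether these numbers pair the animals.

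The paralogous genes *Zfp804a* and *Zfp804b* had the next largest differences. *ZNF804A*, the human counterpart of *Zfp804a*, is known as a schizophrenia risk locus. Each translated protein holds 1 finger motif. *Zfp804b* is the longest member, with 576 kb on the minus strand of chromosome 5. Its split reads were 4, 2, 2, 1914 and 168 in ALS replicates 1, 4, 6, 8 and 9, and 4 in control replicate 1, with 0 elsewhere. In control replicate 1 the overlapping gene *Tex47* had 4 split reads as well. The difference was 3.64 ± 1.67 (SE), with a Student p of 0.0436 and an exact permutation p of 0.0418. It did not pass 0.05 by presence or absence (0.0573, Fisher's exact test). With the load as covariate it did not pass either (3.27, p = 0.323, permutation of the residuals of a fit on the load alone). Nor did it pass with the replicate number as a block (3.58, p = 0.0721 in the fit with the block). Without 1 sample the exact p was 0.0294 to 0.101, under 0.05 only where ALS replicate 2, 3, 5 or 7 or control replicate 1 was left out. *Zfp804a* (207 kb, chromosome 2) had 33, 3 and 11624 split reads in ALS replicates 1, 3 and 9 and 0 in the other 16 samples. The level in ALS replicate 9, a log2 PpGC of 17.9, was the highest of any member in an ALS sample. The difference of 3.71 ± 2.00 (SE) had an exact permutation p of 0.0867. It was 1.94 without ALS replicate 9 and 0.39 with the load as covariate.

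The fingers of both genes are shown because they are the stretch that names them as zinc finger genes and because they are nearly the same. The table gives no position of a circle within a gene, so that a sequence identifies the gene and not the circle. Capitals mark the codons of the cysteines and histidines that hold the zinc. Sequences run 5′ to 3′ on the coding strand of mm10, at chr5:6876392-6876460 (minus strand, exon 2 of 4) and chr2:82235861-82235929 (plus strand, exon 2 of 4).
Zfp804b: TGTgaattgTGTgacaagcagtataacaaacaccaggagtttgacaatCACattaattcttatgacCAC
Zfp804a: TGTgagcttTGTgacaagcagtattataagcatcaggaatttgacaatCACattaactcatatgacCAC
Over the 69 bases 59 were identical (85.5%). ALS replicates 1 and 9 held an eccDNA on both genes, with 4 and 168 split reads on *Zfp804b* and 33 and 11624 on *Zfp804a*.

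Members with an eccDNA in 3 or more ALS samples numbered 8 (8.89%, compared to 11.8% of all genes). The others lie on chromosomes 2, 3, 5 and 7, and 4 of the 8 lie on chromosome 18. GENCODE lists 12 genes of these names there, and 8 of them had a row: *Zfp24*, *Zfp236*, *Zfp407*, *Zfp438*, *Zfp516*, *Zfp521*, *Zfp532* and *Zfp608*. They held 21 of the 119 ALS pairs of gene and sample. Of the 8, 6 recurred in 2 or more samples, compared to 28.9% of all members and 33.8% of all genes. These genes are long, and 7 of the 8 exceed 90 kb. *Zfp521*, a factor known to turn stem cells towards the neural lineage, had log2 PpGC values of 5.98, 9.54 and 11.8 in ALS replicates 1, 7 and 8. *Zfp438* had 7, 2 and 150 split reads in ALS replicates 1, 6 and 7. *Zfp516*, a coactivator of brown fat genes, had 6, 13 and 3 split reads in ALS replicates 1, 3 and 7. None of the 3 genes had an eccDNA in a control, and neither did 75% of all genes. Their differences were 3.04, 2.95 and 2.73, each with an exact permutation p of 0.0867, which is the p that 3 of 9 against 0 of 10 gives. These 3 differences were not refitted with 1 sample left out, so that their dependence on single samples was not tested.

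The weight of chromosome 18 itself differed between libraries. It held 1.1 to 6.31% of the genes with an eccDNA in ALS samples (median 3.81) and 0 to 5.09% in controls. Between the ALS libraries, chi-square per degree of freedom for this share was 7.38 (1.1 on chromosome 7). That measure sets separate animals against counting alone, and 1 eccDNA can enter several genes, so that it only describes the spread. ALS replicate 7 had the highest share and 6 of the 8 genes, and ALS replicate 9 had the lowest share and none of them. The part of this variation in the values of *Zfp407*, *Zfp438*, *Zfp516* and *Zfp521* was not tested. Other chromosomes that carry members varied between the ALS libraries too. The same measure was higher than on chromosome 18 on chromosomes 1 (20.8), 10 (13.2), 11 (13.2), 14 (12.1) and 12 (7.56), and it was 7.32, 7.24, 7.23 and 4.53 on chromosomes 13, 16, X and 15. Without chromosome 18, the number of *Zfp* genes per sample was 4 to 19 in ALS and 0 to 3 in controls.

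A list of 11 genes, drawn up for roles in neurons or neural development, included 8 with a row, and all 8 had the higher mean in ALS, as did 86.5% of all genes. They held 25 pairs of gene and sample in ALS and 3 in controls, and their median difference was 2.9, next to 1.19 for all genes. Their median length was 292 kb, against 49.4 kb for all genes, and 1 of them passed both thresholds (1.33% of all genes). It was *Zfp407*, for which the role given above, in fat cells, is not the one in the list's name. The list was written with earlier results known. *Zfp536*, a repressor of neuronal differentiation on chromosome 7 (302 kb), had log2 PpGC values of 7.54, 4.36 and 13 in ALS replicates 1, 2 and 9 and 0 in all controls. *Zfp423*, which couples to BMP and retinoic acid signalling and is needed for the cerebellum, had 6 and 3 split reads in ALS replicates 3 and 6 and 4 in control replicate 2. *Zfp292* had 28 in ALS replicate 7, and *Zfp462*, a regulator of heterochromatin in stem cells, had 2 in ALS replicate 3. The remaining 3 had no row. They are *Zfp219*, *Zfp335* and *Zfp106*, an RNA-binding protein whose loss causes motor degeneration in mice.

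The FOG cofactors bind GATA factors and direct heart and gonad development. *Zfpm2* (450 kb, chromosome 15) had 41 and 29 split reads in ALS replicates 8 and 9, log2 PpGC values of 8.66 and 8.17. It was at 0 in the other samples (difference 1.87, exact permutation p = 0.211). The difference was 1.02 without ALS replicate 8 and 1.08 without ALS replicate 9. *Zfpm1* had no row. Of the 6 GATA genes *Gata4* and *Gata6* had a row, with 2 pairs in ALS and none in controls. An eccDNA in ALS alone was found for 75% of all genes. Neither GATA gene passed the thresholds (1.33% of all genes).

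Among 13 genes for RNA-binding zinc finger proteins, 4 had a row, each with the higher mean in ALS (86.5% of all genes) and none past the thresholds (1.33% of all genes). *Zfp385b* (409 kb) had 127 and 36 split reads in ALS replicates 2 and 9 and 6 in control replicate 2. *Zfp638*, which is known to silence unintegrated retroviral DNA, had 289 split reads in ALS replicate 1 and 2 in control replicate 7. *Zfp598*, a ubiquitin ligase for collided ribosomes, and *Zfp385c* each had 2 split reads in ALS replicate 1.

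SCAN domain genes, whose proteins pair with each other through that domain, numbered 32 in the annotation and 4 in the table. *Zscan5b* (17.1 kb, chromosome 7) had 3 and 12 split reads in ALS replicates 2 and 9 and 7 in control replicate 7. The levels overlapped between the groups, at log2 PpGC values of 9.6 and 11.6 in ALS and 10.8 in the control (difference 1.27, exact permutation p = 0.458). The difference was 0.118 without ALS replicate 9, 0.368 without ALS replicate 2 and 2.36 without control replicate 7. *Zscan29*, *Zkscan3*, a repressor of autophagy genes, and *Zkscan4* had an eccDNA in 1 ALS sample each, with 5, 8 and 2 split reads.

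Of 9 genes that guard imprints or silence retroelements, such as *Zfp57*, *Zfp445* and *Zfp809*, 0 had a row. Of 11 pluripotency and early embryo genes, such as *Zfp42* and the *Zscan4* genes, the table listed *Zfp296*, with 20 split reads in control replicate 9 and none in ALS. The genes *Zfp62*, *Zfp2* and *Zscan30* had no row either.

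The remaining 72 members were in no list of roles and held 82 pairs in ALS and 9 in controls, with a median difference of 1.15. *Zfp697* (371 kb in this annotation, chromosome 3) had 9, 71 and 2 split reads in ALS replicates 1, 3 and 7. The gene model overlaps several others, and in ALS replicate 7 a pair of them had the same 2 split reads. *Zfp64*, a transcription factor that binds the *Mll* promoter, had 7 and 59 split reads in ALS replicates 3 and 5 (difference 2.33, exact permutation p = 0.211). The difference was 1.5 without ALS replicate 3, 1.12 without ALS replicate 5 and -0.65 with the load as covariate. *Zfp282* had 92 and 10 in ALS replicates 5 and 8, *Zfp597* 31 and 6 in ALS replicates 2 and 9, and *Zfp820* 24 and 2 in ALS replicates 3 and 8. None of these genes had an eccDNA in a control, which held for 75% of all genes.

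Per length, some short genes stood high. *Zfp977* (12.8 kb) had 159 split reads in ALS replicate 5, a log2 PpGC of 15.8, and *Zfp777* (24.7 kb) had 292 in ALS replicate 1, a log2 PpGC of 15.7. Both were at 0 in the other 18 samples. The gene *Gm45738*, which overlaps *Zfp777*, had the same 292 split reads. *Zfp977* and *Zfp820* are cluster genes with 11 and 12 finger motifs, and the first finger of each is shown with those of *Zfp536*, *Zfp697* and *Zscan5b*, so that the spread of the fingers among the members can be seen. Capitals again mark the codons of cysteines and histidines, 5′ to 3′ on the coding strand of mm10. The positions are chr7:37569534-37569596 (minus strand), chr3:98427530-98427592 (plus), chr7:6238765-6238827 (plus), chr7:42580641-42580703 (minus) and chr17:21819731-21819793 (minus), in the order of the lines.
Zfp536: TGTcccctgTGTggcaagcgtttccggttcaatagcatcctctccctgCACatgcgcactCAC
Zfp697: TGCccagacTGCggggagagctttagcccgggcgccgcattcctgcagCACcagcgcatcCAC
Zscan5b: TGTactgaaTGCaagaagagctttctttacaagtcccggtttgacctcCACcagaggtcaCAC
Zfp977: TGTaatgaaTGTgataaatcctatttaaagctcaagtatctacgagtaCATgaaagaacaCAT
Zfp820: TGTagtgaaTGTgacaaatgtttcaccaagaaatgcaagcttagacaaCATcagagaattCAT
The cluster genes *Zfp977* and *Zfp820* were identical at 38 of 63 bases (60.3%), and *Zfp536* and *Zfp977* at 21 (33.3%).

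The members found in controls alone were short, 3.37 to 46.9 kb, and each had an eccDNA in 1 sample. *Zfp449* on the X chromosome had 1573 split reads in control replicate 7 and the highest log2 PpGC of any member, 18.5. *Zfp446* had 57 split reads in control replicate 5 (log2 PpGC 15) and *Zfp296* had 20 in control replicate 9 (14.7). *Zfp459* and *Zfp951* followed, with 6 split reads in control replicate 8 and 15 in control replicate 9. Their differences, ALS minus control, were -1.85, -1.50, -1.47, -1.07 and -1.05, each with an exact permutation p of 1. *Zfp608*, on chromosome 18, was the only gene with an eccDNA in both groups that had the lower mean in ALS, with 13 split reads in ALS replicate 8 and 78 in control replicate 1 (difference -0.16, exact permutation p = 1). It turned to 1.01 without control replicate 1.

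Recurrence went with gene length. The 26 members in 2 or more samples had a median length of 130 kb and the 64 in 1 sample 20.1 kb, and 16 of the former exceeded 100 kb but 4 of the latter. The 8 members in 3 or more ALS samples measured 94.7 to 576 kb. Among annotated coding genes of these names, 85 of 426 (20%) had an eccDNA, compared to 5955 of 21497 other coding genes (27.7%). The same shares were read within classes of length. An eccDNA was found for 16.4% of the *Zfp* genes of 10 to 50 kb (other coding genes 23.5%), 50% of those of 50 to 100 kb (53.6%), 68.8% of those of 100 to 200 kb (76.5%) and all 8 of those of 200 to 500 kb (94.1%). Up to 10 kb the shares were 7.32% and 6.17%. Coding *Zfp* genes with an eccDNA had one in 1.34 ALS samples on average and other coding genes in 1.53. Of the 6 length classes, the *Zfp* mean was the higher at 50 to 100 kb (1.6 and 1.26) and 200 to 500 kb (3.12 and 2.76) and the lower in the other 4. These shares are descriptions without a test. GENCODE holds 299 of the 426 genes between 10 and 50 kb.

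**Figure D3:**
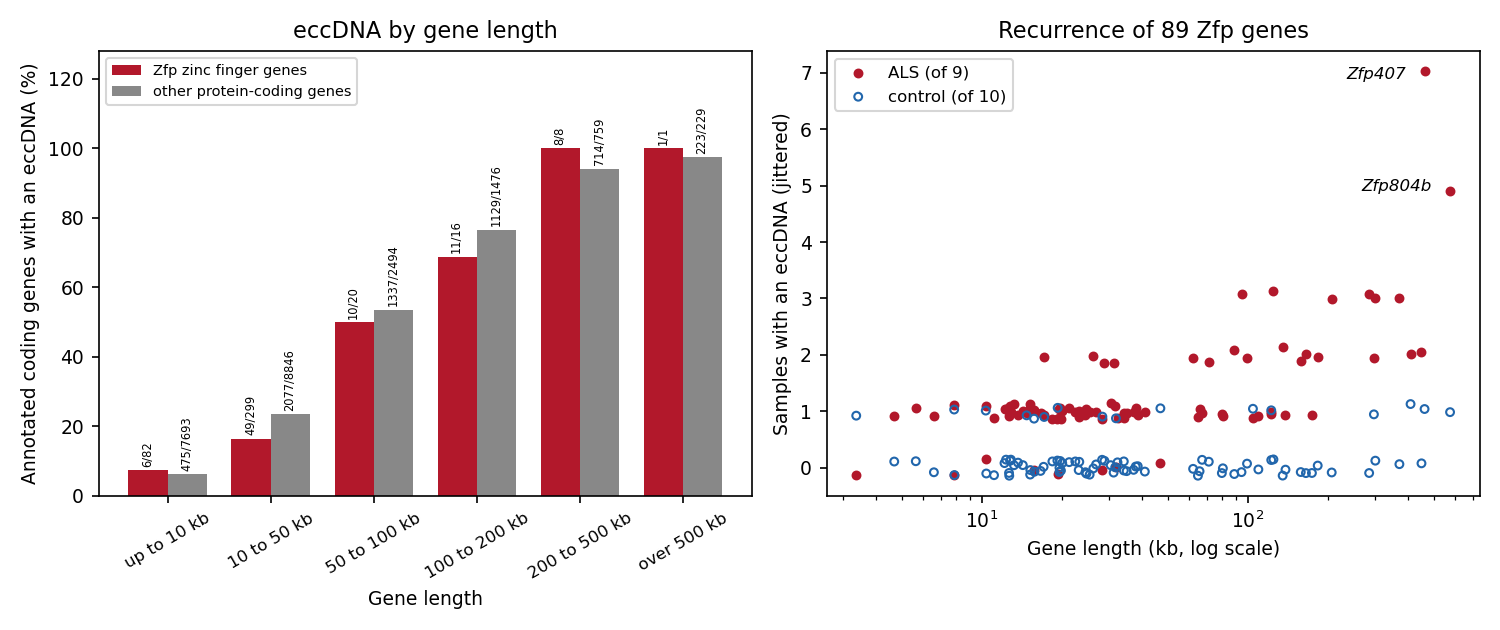
Left, percentage of annotated coding genes with an eccDNA in at least 1 sample by gene length, for *Zfp* genes (red) and other protein-coding genes (grey), with the numbers of genes above the bars. Right, number of ALS (red, of 9) and control (blue circles, of 10) samples with an eccDNA for each of the 89 placed *Zfp* genes against gene length on a log axis, where *Zfp407* and *Zfp804b* lie at 7 and 5 ALS samples and controls stay at 0 or 1.

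The members were also read by their position in clusters. Of 254 coding *Zfp* genes with another one within 100 kb, 34 (13.4%) had an eccDNA, and 0 had one in 3 or more ALS samples. Of the 172 without such a neighbour, 51 (29.7%) had an eccDNA, and 8 had one in 3 or more ALS samples. The median lengths of the annotated genes were 15.6 and 21.5 kb, and of those with an eccDNA 19 and 67.3 kb. No pair of members had the same number of split reads in a sample from neighbouring positions. Chromosome 7 illustrates the clusters, with 109 genes of these names, of which 15 had an eccDNA, and 16 pairs of gene and sample in ALS.

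The name held up for most members. A C2H2 motif, searched in translated transcripts as 2 cysteines with 2 to 4 residues between them, 12 residues, and 2 histidines with 3 to 5 residues between them, was found in 83 of the 85 coding members (97.6%) and in 809 of 21842 coding genes (3.7%). The 2 without it were *Zfp503* and *Zfp957*. Members had a median of 8 motifs, and *Zfp142* had the most, 36. An eccDNA was found for 27.7% of annotated *Zfp* genes with 1 to 4 motifs, 20.3% with 5 to 9 and 18.1% with 10 or more. The median lengths of the genes that had one were 85.9, 24.6 and 28.4 kb. Of the 16 annotated genes without a motif, 2 (12.5%) had an eccDNA.

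Where an eccDNA was present, the median number of split reads lay close in both groups, at 7 in 115 ALS values and 6.5 in 16 control values, and 7 in both groups over all genes. Exactly 2 split reads, the fewest that the table admits, stood behind 29 of the 131 values (22.1%). Over all genes this share was 19.6% in ALS and 21.5% in controls. More than 100 split reads were reached by 14 values, 13 of them in ALS and 1 in a control. In ALS replicate 9, *Zfp804a* alone made up 96.3% of the split reads on *Zfp* genes and 2.96% of those on all genes. In ALS replicate 8, *Zfp804b* and *Zfp407* made up 54.1 and 35.8% of the split reads on *Zfp* genes. An eccDNA on several genes enters each of them, and in 16 pairs of member and sample (15 members) an overlapping gene had the same number of split reads. Among these were *Zfp597* with *Naa60* (31 split reads, ALS replicate 2) and *Zfp644* with *Gm28039* (39, ALS replicate 5).

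**Figure D4:**
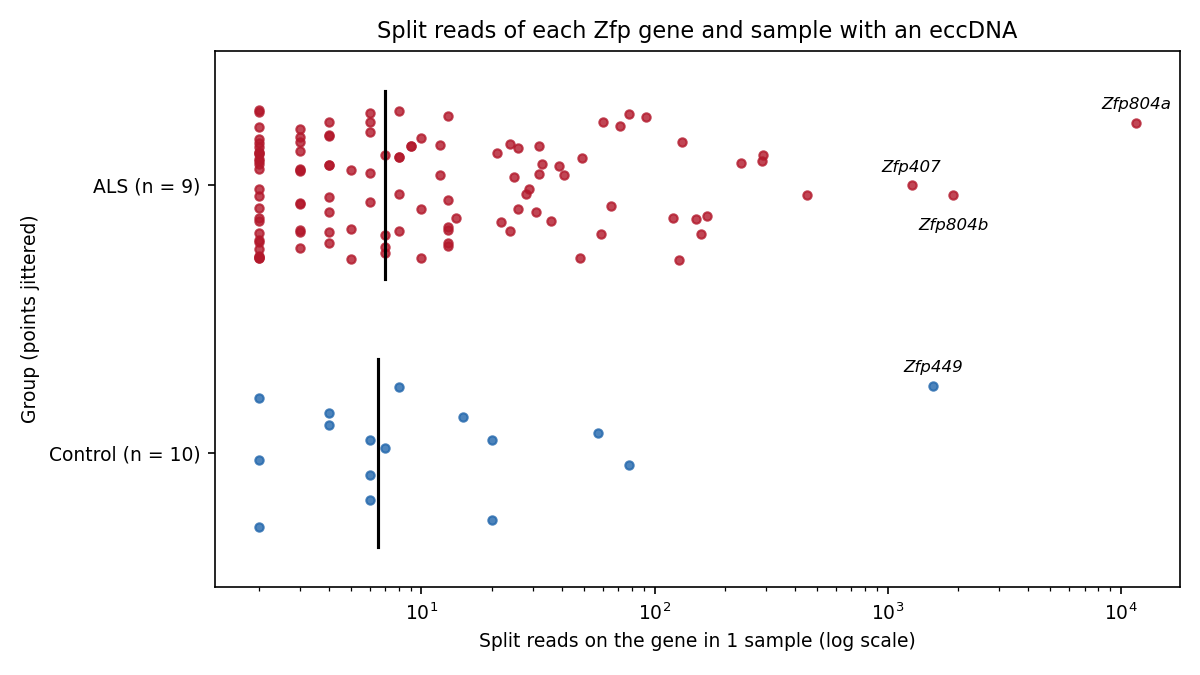
Split reads on a *Zfp* gene in 1 sample, on a log axis, for the 115 values of ALS and 16 of control samples that are whole numbers, jittered vertically, with vertical lines at the medians of 7 and 6.5. *Zfp804a* lies at 11624 split reads, and *Zfp804b*, *Zfp407* and, in a control, *Zfp449* follow.

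Genes that work with or resemble the members were read from lists in the same way. Of 28 genes for KRAB corepressors and heterochromatin partners, 10 had a row (10 pairs in ALS, 1 in controls). Their median difference was 0.971, and none passed the thresholds (1.33% of all genes). *Trim28* and *Setdb1* were not among them. *Cbx1*, for a heterochromatin protein, had an eccDNA in 2 ALS samples. Of 127 genes of other zinc finger families, 48 had a row, with 93 pairs in ALS and 17 in controls, a median difference of 1.33 and 1 gene past the thresholds. It was *Zbtb20* (767 kb, chromosome 16), present in 7 ALS animals and 1 control, at a difference of 5.06 (exact permutation p = 0.0025, 0.487 adjusted over all genes; Student p adjusted 0.284). That is 1 of 48 genes, next to 1.33% of all genes. With Student's test taken as one-sided, 3 of the 48 passed, with *Glis3* and *Prdm16* added (6.25%; 2.27% of all genes), while *Zfp407* was still the only *Zfp* gene to pass.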

How the data were processed

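The authors mapped the paired reads to mm10 with Circle_Finder, merged eccDNAs closer than 10 bp, removed those with fewer than 2 split reads and mitochondrial DNA, assigned the others to GENCODE genes (bedtools), and deposited log2(PpGC + 1) values scaled for gene length. The GENCODE release and the tool versions are not given in the sources used here. By gene name, GENCODE release M21 placed 8106 of 8336, and 98.6% of all values above 0 gave whole split reads. A gene was up in ALS with a difference of over 1 and p under 0.01 in Student's test, the thresholds and test that the study's methods name. It was run two-sided on all genes, since the methods do not give the sides, so that the genes called here need not be those of the study. Single genes were tested by exact permutation over the 92378 ways to choose 9 of 19 samples. Precision is limited by RCA and by the sequencing depth of each library, which is not in the table.

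The members and lists were chosen with earlier results of these data known. Genes were named if they passed both thresholds, had an eccDNA in 4 or more ALS samples, were among the 5 taken by number of control samples (16 members tied at 1, so that the higher control mean decided), the 5 most negative, the 5 longest or the 3 highest of a group, were *Zfpm* genes or named by the study, or where a short count is spelled out. Others were chosen after their values were seen, namely the remaining members in 3 or more samples or on chromosome 18, and *Zfp282*, *Zfp597*, *Zfp820*, *Zfp644*, *Zfp142*, *Zfp638*, *Zfp598*, *Cbx1*, *Zbtb20*, *Glis3* and *Prdm16*.

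Python 3.11.15, NumPy 2.4.6, pandas 2.3.3, SciPy 1.17.1, matplotlib 3.10.9, R 4.3.3 and limma 3.58.1 were used, with the seed 20. On simulated data for ALS against control with 8336 genes, the per-gene test called 159 of 200 changed and 41 of 8136 unchanged genes. Alternatives were other scalings, pseudocounts, tests, filters, a covariate, a block, chromosomes and leaving out each sample.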

Additional observations from a re-analysis of the deposited data

Results flagged for a closer look

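In single samples, values lay far from the rest of their group, by the ratio of the gap to the range. Chance marks about 1 in 20 groups. For the following genes the other samples of the group were all at 0, so that any value above 0 is marked.

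In ALS, the log2 PpGC of *Zfp977* was 15.8 in replicate 5, that of *Zfp777* 15.7 in replicate 1 and that of *Zfp608* 9.11 in replicate 8. Among controls, replicate 7 held *Zfp449* at 18.5, *Zscan5b* at 10.8 and *Zfp407* at 7.59. *Zfp608* was at 11.7 and *Zfp804b* at 4.99 in control replicate 1. *Zfp296* was at 14.7 and *Zfp951* at 10.5 in control replicate 9. *Zfp446* was at 15 in control replicate 5, *Zfp459* at 10.7 in control replicate 8 and *Zfp385b* at 6.05 in control replicate 2.

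Among ALS samples, the share of split reads on all genes that fell on *Zfp* genes was 3.07% in replicate 9, whereas the other ALS samples lay between 0.0343 and 0.985%. *Zfp804a* carried 96.3% of these split reads in replicate 9.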

How the results depend on the processing

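The count of *Zfp* genes up in ALS was 1 (*Zfp407*) with limma, the exact permutation p, presence or absence, a minimum of 3 samples and a one-sided Student p, which was added after seeing the data. It was 0 without length scaling, with a pseudocount of 100, equal totals per sample, the replicate block, the sample load as a covariate, Benjamini-Hochberg adjustment, or on chromosomes 2 to 9 and X, which leave out *Zfp407*. All genes called under these 7 settings numbered 71, 9, 60, 54, 26, 6 and 65, and with limma, the exact p, presence or absence and the one-sided p 166, 68, 57 and 189, compared to 111 as reported. Leaving out 1 sample gave 0 to 1. The median difference of 1.16 was 0.352 without length scaling, 0.428 with a pseudocount of 100 and 2.76 with a minimum of 3 samples, which are smaller or larger by construction, and 1.15 to 1.3 without 1 sample. The number of *Zfp* genes per sample, ALS minus control, was 11.6, and 10.4 to 12.7 without 1 sample. It was 8.57 for values of at least 8, 9.49 outside chromosome 18 and 10.8 for genes with a finger motif, the last 2 chosen after seeing the data. The share, 0.158 points, was 0.0614 to 0.339 without 1 sample, 0.0179 for values of at least 8 and -0.399 on chromosomes 2 to 9 and X; the cause was not tested.

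With the covariate, *Zfp697* (-3.31), *Zfp777* (-2.05) and *Zfp64* (-0.65) changed sign, and *Zfp608* did by presence or absence (0.0111, difference of shares) and without control replicate 1 (1.01; -1.17 to 1.01 over the samples left out). *Zfp407* was 1.57 (p = 0.0516) with a pseudocount of 100. *Zfp804b* ranged from 2.43 to 4.16 without 1 sample and kept an exact permutation p under 0.05 in 5 of 19 such fits. *Zfp804a* had p = 0.0416 by limma's moderated test. The labels do not say whether the replicate numbers pair the animals. Over 9 pairs of equal number, correlations of the deviations from the group means were -0.0205 to 0.0226. With 91.1% of all values at 0, such correlations cannot decide whether animals were paired. With the number as a block, the difference was 4.99 for *Zfp407* (p = 0.0442) and 3.58 for *Zfp804b* (p = 0.0721). The RefSeq protein alternative was not run, and translated transcripts were used instead. An eccDNA under 2 split reads is not seen, and the depth of each library is not in the table.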
